A study of Mus musculus with 26 samples.

Results

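The 10 genes described here encode lipoprotein receptors and proteins that make, carry or degrade amyloid-β, and they were taken by symbol from the count table of the choroid plexus (ChP). The receptors were Lrp1, Lrp2, Lrp3, Lrp8 and Vldlr of the LDL receptor family and the sorting receptor Sorl1. Apoe, App, Mme and Ide completed the set. All 10 of the 55416 listed genes were found, and all 10 had a mean of at least 1 CPM (counts scaled to a fixed library total) in both groups, the minimum that left 13697 genes for testing.

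The ChP of the 4th ventricle was sampled from adult male C57Bl6J mice, 12 after sham surgery (Ctrl) and 12 after a lesion of the suprachiasmatic nuclei (SCNx), the site of the central circadian clock. Both groups spent a week in a light/dark cycle before constant darkness, in which single mice were taken at 4 h intervals from circadian time (CT) 0 to CT44, so a library is named by its group and time. Another group (KO) held 1 mouse at Zeitgeber time (ZT) 7 and 1 at ZT18 in a light/dark cycle. These adult male mice carried FoxJ1-ERT2-Cre+/-; Bmal1fl/fl and ate tamoxifen in the diet, which deletes the clock gene Bmal1 in cells in which the FoxJ1 promoter is active. Their ChP was cut out by laser capture and prepared with another kit, and recombination had been tested in liver.

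LDL receptor family members are membrane proteins that bind lipoproteins and many other ligands and take them up by endocytosis. The ChP epithelium secretes cerebrospinal fluid and forms the barrier between it and blood, and receptors of this family move apolipoproteins, hormones and amyloid-β across or out of such barriers. Amyloid-β is cut from App by secretases, and it is removed by transport through receptors such as Lrp1 and Lrp2 and by proteases such as neprilysin (Mme) and insulin-degrading enzyme (Ide). Apolipoprotein E (Apoe) is a ligand of the receptors and binds amyloid-β, and Lrp8 and Vldlr are also the receptors of reelin.

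In Ctrl ChP, 2 of the 10 genes had a 24 h rhythm and their phases were opposed. Lrp8 was highest near the start of the subjective day and Lrp3 near its end. Across all tested genes edgeR called 10.7% rhythmic in Ctrl. The rhythm of Lrp8 differed between SCNx and Ctrl, and that of Lrp3 did not pass the test of the difference. For the mean level in SCNx against Ctrl, edgeR called 0 of the 10 and 0% of all tested genes. An unadjusted p below 0.05 was found for 3 of the 10 and for 1283 of all 13697 tested genes.

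The sequences around the start sites of Lrp3, Lrp8, Sorl1 and Ide are shown because clock proteins act on short motifs near gene starts, and these were the members with a match. The 250 bases before 18 RefSeq start sites of the 10 genes (build GRCm38.p6) were searched on both strands for the E-box CACGTG bound by CLOCK and BMAL1, the ROR element core AGGTCA, the D-box TTANGTAA and the sterol element TCACNCCAC. Each line gives 30 bases 5′ to 3′ on the strand of the gene, with the match in capitals. For Ide the match was on the opposite strand and reads TGACCT.
Lrp3, E-box, chr7:35215346-35215375 on the minus strand: tcggcgggcgcgtCACGTGgctagcgcggc
Sorl1, E-box, chr9:42124299-42124328 on the minus strand: gctgcgagctcaCACGTGacggcacggcgc
Lrp8, ROR core, chr4:107830712-107830741 on the plus strand: gcatcttgaataAGGTCAcacagccacagg
Ide, ROR core, chr19:37334755-37334784 on the minus strand: cagcttttacatTGACCTcagagacctgaa

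The E-box of Lrp3 began 17 bases before its RefSeq start, inside the first exon of a longer transcript in the GENCODE vM21 annotation of GRCm38. That of Sorl1 began 19 bases before its RefSeq start. E-boxes stood in 6.02% of 32851 such windows of the mouse genome. The ROR core of Lrp8 lay 229 bases before start 3 in RefSeq, within the gene in GENCODE and opposite an exon of the antisense transcript Lrp8os1. That of Ide lay 228 bases before its RefSeq start, in an intron of a longer noncoding transcript of the gene in GENCODE, and 14.02% of all windows held this core. The D-box was in 2.06% and the sterol element in 1.05% of all windows, and neither was found in the windows of the 10 genes. All windows of Lrp8, Mme and Ide lay inside the gene as annotated in GENCODE. The bases before the GENCODE starts of Lrp8, Mme and Ide were therefore not searched. The window before the first RefSeq start of Lrp8 (GRCm38.p6, chr4:107802635-107802884, plus strand) is shown because Lrp8 had the lowest p of the set. It held none of the 4 motifs and lay in an intron of the coding transcripts in GENCODE, in part over an exon of a noncoding one.
Lrp8, 250 bases before the first RefSeq start: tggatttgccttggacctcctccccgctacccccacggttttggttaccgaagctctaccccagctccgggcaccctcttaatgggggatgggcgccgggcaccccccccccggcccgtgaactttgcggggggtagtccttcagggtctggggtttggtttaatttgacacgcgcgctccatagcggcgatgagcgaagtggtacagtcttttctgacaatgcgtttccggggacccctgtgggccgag

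The libraries held between 38751200 and 47335300 estimated counts in Ctrl, between 41807000 and 49527700 in SCNx, and 17425200 and 18059200 in KO. Markers of ChP epithelium summed to between 142338 and 165574 CPM in Ctrl and between 105555 and 166151 in SCNx, with the lowest value in SCNx CT32. In 4 libraries markers of neural tissue or liver were far above the rest of their group. In Ctrl CT4 neuron and cerebellum markers summed to 346 CPM (group median 18.8) and astrocyte markers to 732 CPM (median 147). In SCNx CT32 these sums were 415 CPM (median 18.3) and 825 CPM (median 144). Hepatocyte markers summed to 2638 CPM in Ctrl CT16 (median 1.95) and to 11412 CPM in SCNx CT0 (median 3.45). Other libraries also stood out, with blood markers at 6659 CPM in SCNx CT44 (median 539.7), neuron and cerebellum markers at 94.9 CPM in SCNx CT12 and hepatocyte markers at 37.5 CPM in Ctrl CT40. In bulk tissue, fewer cells of a type and less RNA per cell cannot be told apart. The clock genes Arntl (Bmal1), Nr1d1 and Dbp were each called rhythmic in Ctrl, with amplitudes of 2.23, 2.45 and 2.04 on the log2 scale, and each differed in rhythm between the groups.

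Lrp8 (apolipoprotein E receptor 2, ENSMUSG00000028613; chr4:107802261-107876840, plus strand, GRCm38) was rhythmic in Ctrl. Its level from CT0 to CT20 was 223, 214, 188, 125, 156 and 196 CPM, and from CT24 to CT44 it was 229, 199, 159.9, 119, 159.7 and 174 CPM. The highest library of each day was at CT0 and CT24 and the lowest at CT12 and CT36. The fitted curve peaked at CT0.86 ± 0.51 (SE) with an amplitude of 0.38 ± 0.05 on the log2 scale from mean to peak (SE, n = 12), or 1.70-fold from trough to peak (edgeR adjusted p = 0.000123). Genes had a median fitted amplitude in Ctrl of 0.11 over all tested genes and of 0.19 over the 10, and these medians were not compared by a test. A fitted amplitude cannot fall below 0. The 10 include Lrp2, Sorl1 and Lrp1 at 0.36, 0.31 and 0.22, whose rhythms were not called (edgeR adjusted p = 0.60, 0.46 and 0.41).

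In SCNx, Lrp8 was nearly flat in its fitted curve. It measured 162, 174, 151, 173, 190.1 and 185 CPM from CT0 to CT20 and 198, 189, 170.3, 198, 191 and 172 CPM from CT24 to CT44. The whole SCNx range, 151 to 198 CPM, lay inside that of Ctrl, and the SD was 14.7 CPM against 36.1 CPM. The amplitude was 0.06 ± 0.05 (SE, n = 12; edgeR adjusted p = 0.71 for a rhythm). The rhythm differed between the groups (edgeR adjusted p = 0.0107), and 2.12% of all tested genes were called in this test, 1 of the 10 members among them. The mean level was 178 ± 36.1 CPM (SD) in the Ctrl group and 179 ± 14.7 CPM (SD) after the lesion, a log2 difference of 0.01 ± 0.09 (SE; edgeR adjusted p = 0.99).

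**Figure D1:**
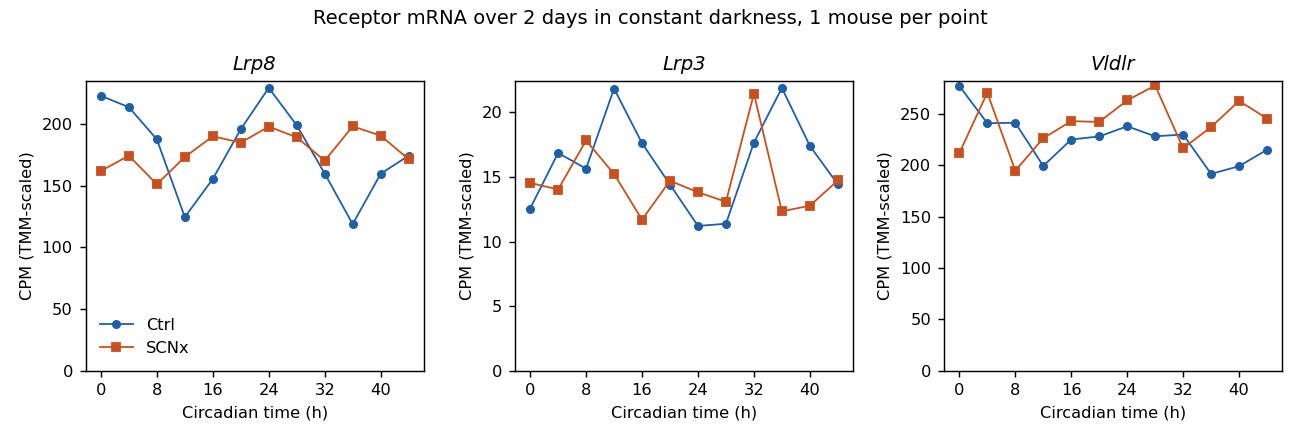
CPM of Lrp8, Lrp3 and Vldlr (vertical axes from 0) against circadian time in hours, where each point is 1 mouse, circles are Ctrl and squares SCNx. In Ctrl, Lrp8 had its lowest values at CT12 and CT36 (125 and 119 CPM) where Lrp3 had its highest (21.8 and 21.9 CPM).

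Lrp3 (ENSMUSG00000001802; chr7:35200027-35215498, minus strand, GRCm38), a family member whose ligands are less well known, was the second rhythmic gene. In Ctrl it measured 12.6, 16.9, 15.7, 21.8, 17.6 and 14.4 CPM on the first day and 11.2, 11.4, 17.7, 21.9, 17.4 and 14.4 CPM on the second. Its highest library was at CT12 and at CT36, where Lrp8 was lowest, and its lowest was at CT0 and at CT24, where Lrp8 was highest. The curve peaked at CT12.3 ± 0.66 (SE) with an amplitude of 0.38 ± 0.07 (SE, n = 12; edgeR adjusted p = 0.00812), again 1.70-fold from trough to peak.

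In SCNx, Lrp3 measured 14.6, 14.04, 17.8, 15.2, 11.7 and 14.7 CPM on the first day and 13.8, 13.1, 21.5, 12.3, 12.8 and 14.7 CPM on the second. All SCNx libraries other than CT8 and CT32 were between 11.7 and 15.2 CPM. These 2 libraries share the same circadian time, and each was the highest of its day. Over the 6 times sampled on both days, Pearson's r of log2 CPM between the days was 0.75 in SCNx and 0.75 in Ctrl. The amplitude was 0.17 ± 0.09 (SE, n = 12; edgeR adjusted p = 0.41). The difference of the rhythms did not pass the threshold with all libraries (edgeR adjusted p = 0.14). It passed without SCNx CT32 (adjusted p = 0.0436), the library with the most neuron markers, and without Ctrl CT4 and SCNx CT32 together (adjusted p = 0.0117). Without SCNx CT32 the amplitude of Lrp3 in SCNx was 0.08.

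Vldlr (ENSMUSG00000024924), the other reelin receptor, ranged from 192 to 277 CPM in Ctrl with a median of 228, and was highest at CT0 and lowest at CT36. Its fitted peak was at CT1.71 ± 0.995 (SE), with an amplitude of 0.16 ± 0.04 (SE, n = 12). The rhythm did not pass the threshold (edgeR adjusted p = 0.13). It passed without Ctrl CT16 and SCNx CT0, which held hepatocyte transcripts (adjusted p = 0.0496). In SCNx the range was 195 to 278 CPM with a median of 243, so the groups overlapped over nearly their whole range, and the amplitude was 0.08 ± 0.06 (SE). The difference of the rhythms had an edgeR adjusted p of 0.59.

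Among the other receptors no rhythm was called in the fit of all libraries. Sorl1 (ENSMUSG00000049313), which sorts App away from the compartments where it is cut, ranged from 32.8 to 65.5 CPM in Ctrl with a median of 38.8 and its highest value in Ctrl CT4. In SCNx it ranged from 33.2 to 155 CPM with a median of 40.4. SCNx CT32 alone gave the value of 155 CPM and the next library was at 58.8 CPM. Both highest libraries were those with the most neuron and astrocyte markers. The amplitude of Sorl1 in Ctrl was 0.31 ± 0.09 (SE, n = 12; edgeR adjusted p = 0.46), and the rhythm passed in a fit of the Ctrl libraries alone (adjusted p = 0.0447). The amplitude in SCNx was 0.55 ± 0.24 (SE, n = 12; edgeR adjusted p = 0.20) with all libraries and 0.14 without SCNx CT32.

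Lrp1 (ENSMUSG00000040249), an endocytic receptor for Apoe and amyloid-β, ranged from 482 to 923 CPM in Ctrl with a median of 641 and from 464 to 1039 CPM in SCNx with a median of 829.9. The groups overlapped widely. The amplitude of Lrp1 was 0.22 ± 0.10 in Ctrl and 0.35 ± 0.14 in SCNx (SE, n = 12 each), and its log2 difference in level was 0.30 ± 0.14 (SE; unadjusted p = 0.0362; edgeR adjusted p = 0.50). Lrp2 (megalin, ENSMUSG00000027070), a large receptor of absorptive epithelia, was low, with a range of 0.630 to 2.14 CPM and a median of 1.15 in Ctrl. In SCNx it ranged from 0.739 to 5.19 CPM with a median of 1.59 and its highest value in SCNx CT32. Its log2 difference was 0.60 ± 0.25 (SE; unadjusted p = 0.0258; edgeR adjusted p = 0.49) and 0.34 without SCNx CT32. Its amplitudes of 0.36 ± 0.16 in Ctrl and 0.41 ± 0.32 in SCNx (SE) had wide errors.

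The levels of Lrp1 and Lrp2 moved across libraries with those of other genes that have long transcripts. The longest coding transcript annotated for them has 14888 and 15460 bases. For 342 other tested genes with transcripts of at least 10000 bases, a minimum chosen after the values had been seen, the median log2 deviation from the mean of all libraries ranged from -0.24 in Ctrl CT20 to 0.14 in Ctrl CT8. In SCNx it ranged from -0.25 in CT8 to 0.45 in CT32. Over the 24 libraries, Pearson's r with this median was 0.93 for Lrp1 and 0.89 for Lrp2. It was 0.56 for Sorl1, whose longest coding transcript of 10715 bases also passes the minimum. For the shorter Ide, App and Apoe it was 0.34, -0.19 and -0.36. SCNx CT32 was the highest library for the long genes and also for Lrp1, Lrp2 and Sorl1, with a deviation of 1.81 for Sorl1. The points share library, depth and scaling, and the part of transcript length in the levels of Lrp1 and Lrp2 was not tested.

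**Figure D2:**
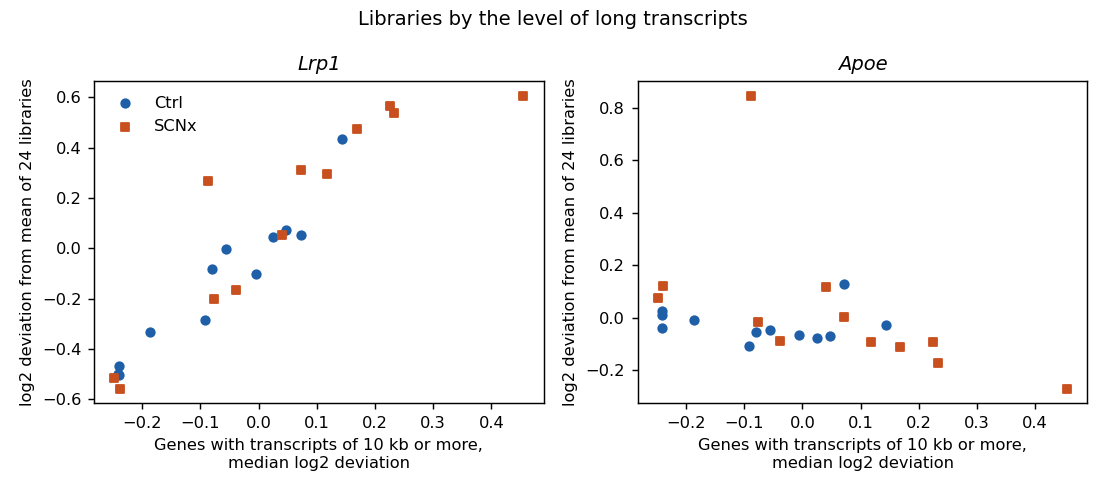
Log2 deviation from the mean of 24 libraries of Lrp1 (left) and Apoe (right) against the median log2 deviation of 342 genes with transcripts of at least 10000 bases, 1 point per library, circles Ctrl and squares SCNx. Lrp1 was high in the libraries in which the long genes were high (r = 0.93), and Apoe was not (r = -0.36).

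The ligand Apoe and the precursor App varied little across the Ctrl libraries. Their spread was ranked among all tested genes of any level, and no ranking among genes of similar level was made. Apoe (ENSMUSG00000002985) ranged from 1465 to 1729 CPM in Ctrl with a median of 1532, and its SD of log2 CPM over the 12 libraries was at percentile 4.51 of all tested genes. The highest Ctrl library was CT16, in which hepatocyte markers were high. In SCNx it ranged from 1310.3 to 2841 CPM with a median of 1523. SCNx CT0, the library with the most hepatocyte markers, held the 2841 CPM, and the next highest was 1720.2 CPM. The log2 difference between the groups was 0.08 ± 0.09 (SE; edgeR adjusted p = 0.79), and it was -0.02 without SCNx CT0. The amplitude in SCNx was 0.17 ± 0.12 (SE) with this library and 0.07 without it.

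App (ENSMUSG00000022892) ranged from 1818 to 2154 CPM in Ctrl with a median of 1904, and its SD stood at percentile 14.1. In SCNx it ranged from 1586 to 2024 CPM with a median of 1922, and its lowest libraries were SCNx CT32 and SCNx CT0, at 1586 and 1622 CPM. The amplitudes of 0.03 ± 0.04 in Ctrl and 0.06 ± 0.04 in SCNx (SE, n = 12 each) did not pass the test of a rhythm (edgeR adjusted p = 0.88 and 0.66).

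The 2 proteases showed no call either. Ide (ENSMUSG00000056999) ranged from 89.4 to 106 CPM in Ctrl with a median of 97.2 and from 86.9 to 108 CPM in SCNx with a median of 97.8, and its SD in Ctrl was at percentile 7.46. Mme (ENSMUSG00000027820) had the smallest unadjusted p for a level difference in the set. It ranged from 23.3 to 33.2 CPM in Ctrl with a median of 26.4 and from 16.8 to 29.6 CPM in SCNx with a median of 23.3. Its log2 difference was -0.22 ± 0.08 (SE; unadjusted p = 0.00965; edgeR adjusted p = 0.43). The groups overlapped, and the SD was 3.24 CPM in Ctrl and 3.37 CPM after the lesion. The amplitude of Mme was 0.05 ± 0.07 in Ctrl and that of Ide 0.04 ± 0.03 (SE).

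Over all tested genes edgeR called 0% changed in level, 0 of 13697, of which 1283 had an unadjusted p below 0.05, and 3 of the 10 members were among these. DESeq2 called 14 genes and limma-trend 0, and neither called a member. For a rhythm in SCNx edgeR also called 0 genes (0%), with 2032 at an unadjusted p below 0.05, among them the members Lrp1 and Sorl1. DESeq2 called 432 and limma-trend 0, again without a member. With no minimum CPM edgeR called 1384 rhythms in SCNx, with Sorl1 among them (adjusted p = 0.0296).

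**Figure D3:**
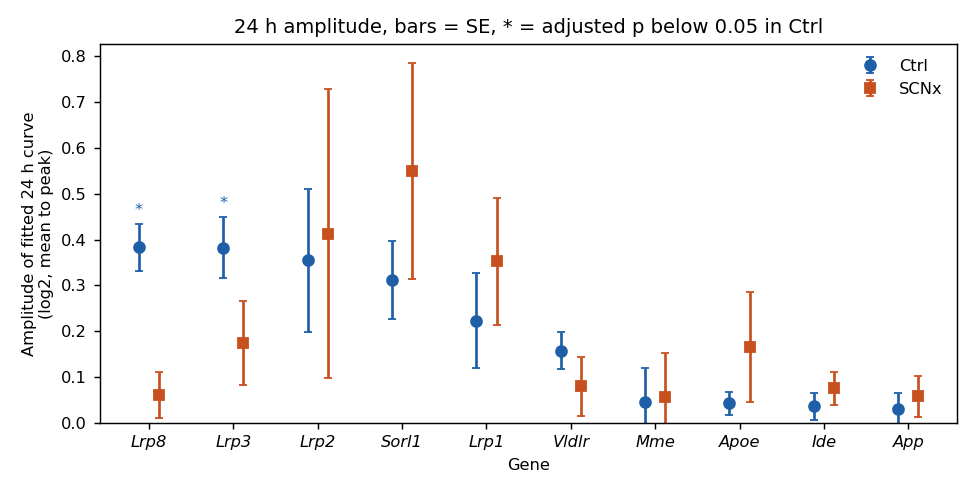
Amplitude of the fitted 24 h curve (log2, mean to peak) of the 10 genes in Ctrl (circles) and SCNx (squares), bars are the SE and a star marks an adjusted p below 0.05 in Ctrl. Lrp8 and Lrp3 stood at 0.38 in Ctrl with narrow errors, and the wide errors of Sorl1 and Lrp2 in SCNx include SCNx CT32.

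Per kilobase of the longest coding transcript, Apoe was the most abundant of the 10 mRNAs in Ctrl, with a level of 1102 ± 49.0 CPM per kb (SD, n = 12). App followed at 237 ± 13.6 CPM per kb, Lrp1 at 42.4 ± 8.67, Vldlr at 28.4 ± 2.93, Lrp8 at 26.9 ± 5.44 and Ide at 19.6 ± 0.945. Sorl1 at 3.96 ± 0.884, Lrp3 at 3.88 ± 0.855 and Mme at 3.37 ± 0.403 CPM per kb overlapped in their SD, as did Vldlr and Lrp8. Lrp2 was lowest at 0.0801 ± 0.0254 CPM per kb. The order of the means was the same in SCNx. With the shortest coding transcript as the length, Lrp1 came before App, Mme before Ide, Lrp3 and Sorl1, and Lrp3 before Sorl1. Short coding fragments are annotated for several of the genes, with 292 bases for Lrp1 and 569 bases for Mme. For Lrp3 the shortest and longest had 3877 and 4147 bases.

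**Figure D4:**
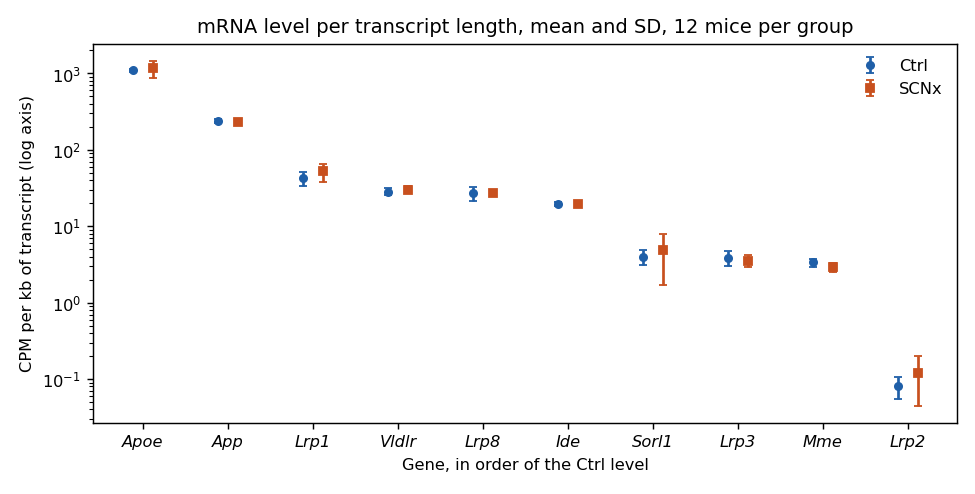
Level per kilobase of the longest coding transcript on a log axis for the 10 genes in order of the Ctrl mean, points are means and bars the SD of 12 mice in Ctrl (circles) and SCNx (squares). Levels ran from 0.0801 CPM per kb for Lrp2 to 1102 for Apoe.

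Genes of the same pathway were read beside the set. Over all tested genes 10.7% were called rhythmic in Ctrl, and the counts in these lists were not tested against that share. Of 9 tested further LDL receptor family members none was called in a comparison. Lrp5, a Wnt co-receptor, had an amplitude of 0.16 ± 0.05 in Ctrl (edgeR adjusted p = 0.14). Of 2 tested VPS10 receptors related to Sorl1, 1 was rhythmic in Ctrl. Sorcs2, a receptor of proneurotrophins, ranged from 9.77 to 22.8 CPM in Ctrl and had an amplitude of 0.53 ± 0.05 with a peak at CT5.88 (edgeR adjusted p = 4.55e-05). In SCNx it ranged from 13.4 to 20.9 CPM with an amplitude of 0.14 ± 0.07, and the rhythms differed (adjusted p = 0.0261). This difference did not pass without Ctrl CT16 (adjusted p = 0.0539).

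Of 11 tested partners of the receptors, 1 was rhythmic in Ctrl. This was Dab2, an endocytic adaptor of Lrp2, with an amplitude of 0.14 ± 0.03 and a peak at CT7.80 (edgeR adjusted p = 0.0384). The call was lost without any 1 of the 8 libraries Ctrl CT8, CT12, CT16, CT20, CT28, CT32, CT36 and CT44, where the adjusted p reached 0.13. The reelin gene itself, Reln, had a mean of 2.68 CPM in Ctrl and 7.02 CPM in SCNx (edgeR adjusted p for the level = 0.48), of which SCNx CT32 held 49.8 CPM. Of 5 genes that respond to sterols none was called in a comparison, and the closest to a rhythmic call in Ctrl were Sqle and Insig1, with amplitudes of 0.16 and 0.21 (adjusted p = 0.23 and 0.30).

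Of 12 tested apolipoproteins and genes of lipid loading, 4 were called rhythmic in Ctrl. Lpl, the lipase that frees fatty acids from lipoproteins, was highest at CT4 and CT28, with 18.9 and 18.1 CPM, and lowest at CT40 with 3.39 CPM. Its amplitude was 0.92 ± 0.15 with a peak at CT2.98 (edgeR adjusted p = 0.000573), against 0.23 ± 0.16 in SCNx, and the rhythms differed (adjusted p = 0.0111). Abcg1, a cholesterol exporter, had an amplitude of 0.20 ± 0.05 with a peak at CT19.8 (adjusted p = 0.0474), a call that was lost without any 1 of 12 libraries. Apob and Apoa1, apolipoproteins of liver and gut, were called as well (adjusted p = 0.0131 and 0.0219), and the rhythm of Apob differed between the groups (adjusted p = 0.0404). In Ctrl, Apob was at 187 CPM in CT16 and at most 1.68 CPM in the other libraries, and in SCNx at 298 CPM in CT0 and at most 0.640 CPM in the others. These were the libraries with the hepatocyte markers, and neither gene was called by limma-trend (adjusted p = 0.22 for Apob and 0.40 for Apoa1). The difference call of Apob was lost without any 1 of 12 libraries.

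Of 18 tested genes of the App family and the secretases, 2 were rhythmic in Ctrl, where edgeR called 10.7% of all tested genes. Aph1c, a subunit of γ-secretase, had an amplitude of 0.19 ± 0.04 with a peak at CT17.4 (edgeR adjusted p = 0.0259), and its call was lost without Ctrl CT4, Ctrl CT16 or Ctrl CT28. Adam9, a membrane protease with α-secretase activity, had one of 0.16 ± 0.03 with a peak at CT0.04 (adjusted p = 0.0365), and its call was lost without any 1 of 6 Ctrl libraries. Of 16 tested genes of amyloid degradation and transport, 2 were rhythmic in Ctrl. Abcc1, an efflux transporter, had an amplitude of 0.26 ± 0.06 with a peak at CT7.87 (adjusted p = 0.00789), and its rhythm did not pass the test of the difference between the groups (adjusted p = 0.099). That difference passed without Ctrl CT0 (adjusted p = 0.0268), without the 4 libraries with markers of other tissue (adjusted p = 0.0208) and in DESeq2. Plau, the urokinase that activates plasminogen, had one of 0.42 ± 0.11 at a mean of 2.19 CPM (adjusted p = 0.0447), and its call was lost without any 1 of 13 libraries.

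No gene of these lists was called for its level in SCNx against Ctrl or for a rhythm in SCNx, where edgeR called none of all tested genes. Values follow for those nearest to the threshold. Cst3, which encodes the protease inhibitor cystatin C, had a log2 difference of -0.12 ± 0.04 (SE, SCNx minus Ctrl; edgeR adjusted p = 0.45), and Ctsb, a lysosomal protease, one of -0.11 ± 0.05 (adjusted p = 0.50). Aph1a, another γ-secretase subunit, had one of -0.15 ± 0.05 (adjusted p = 0.38), and Aplp1, a relative of App, one of -0.13 ± 0.05 (adjusted p = 0.44). The value was 2.34 ± 0.90 for the apolipoprotein gene Apoc1, which stood at 378 CPM in SCNx CT0, 37.9 CPM in Ctrl CT16 and at most 6.73 CPM in the other libraries of the 2 groups, and 0.19 ± 0.08 for Abca1, a cholesterol exporter. It was -0.12 ± 0.06 for the receptor Lrp10 and -0.09 ± 0.04 for Lrpap1, the chaperone of this receptor family.

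Transcripts from the opposite strand at the Lrp8 locus were read because reads of overlapping genes on opposite strands cannot be told apart where the counting strand is not given. Lrp8os1 and Lrp8os2, which overlap Lrp8, were near 0, at no more than 0.0459 and 0.221 CPM in Ctrl and SCNx. Lrp8os3 is transcribed away from Lrp8, from a start 197 bases before that of Lrp8 in GENCODE vM21. It measured between 1.29 and 2.49 CPM in Ctrl and between 1.49 and 2.69 CPM in SCNx. Its fitted peak in Ctrl was at CT21.8 with an amplitude of 0.31 ± 0.09 (edgeR adjusted p = 0.073, and 0.0453 without SCNx CT32). The rhythms of Lrp8os3 differed between the groups (adjusted p = 0.0459), and this call was lost without any 1 of 19 libraries.

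The genes most like each member over the 24 libraries were read from Pearson's r of log2 CPM. For Lrp8 they were Zfp618 (r = 0.90) and Lgi1 (r = 0.89), and without the 4 libraries with markers of other tissue Zfp618 (r = 0.93) and Adam9 (r = 0.92). For Lrp3 they were Mthfd1l (r = 0.91) and Peli2 (r = 0.89), and without the 4 libraries Tspan4 (r = 0.91) and Peli2 (r = 0.90). For Lrp1 they were Birc6 and Herc1 (both r = 0.98), whose longest transcripts have 15768 and 15153 bases, and Vps13c and Herc1 (both r = 0.99) without the 4 libraries. Lrp2 was most like Htt (r = 0.92) and Mycbp2 (r = 0.91), and Vldlr most like Atp7a (r = 0.89) and Arfgef2 (r = 0.88).

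For Apoe, Scp2 (r = 0.95) and Sec14l2 (r = 0.94) were the most alike over all libraries, and without the 4 libraries Fars2 (r = 0.80) and Khk (r = 0.76). Sorl1 was most like Agtpbp1 (r = 0.91) and Dzank1 (r = 0.90). App was most like Mmut and Plxnb2 (both r = 0.87), and without the 4 libraries its relative Aplp2 came first (r = 0.87). Ide was most like Fkbp15 (r = 0.86) and Iars (r = 0.85). Mme had the lowest best match, Itga2 at r = 0.70. All libraries share depth and scaling across genes, and these values are descriptions.

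In the KO libraries the deleted gene was read first. Arntl measured 10.6 CPM at ZT7 and 9.36 CPM at ZT18, against 2.01 to 39.4 CPM in Ctrl. The count covers the whole gene, so reads outside the deleted part are included and the value does not check the deletion. Nr1d1, which Bmal1 activates, was at 30.1 CPM at ZT7 and 52.6 CPM at ZT18. With 1 mouse at each time there is no test, and the intervals given are exact Poisson intervals at 95% that cover counting error only. Neuron and cerebellum markers summed to 262 and 404 CPM at ZT7 and ZT18, and astrocyte markers to 743 and 866 CPM, which exceeded the medians of the other groups. Astrocyte markers were at 732 CPM in Ctrl CT4 and 825 CPM in SCNx CT32, the highest of their groups. Oligodendrocyte markers summed to 307 and 446 CPM in KO. Epithelium markers summed to 85828.5 and 81534.2 CPM, below every Ctrl and SCNx library. The part of the tissue mix in the KO levels and ratios was not tested.

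Lrp3 was the member with the largest night value relative to day, at 10.1 CPM at ZT7 (8.66 to 11.7) and 16.0 CPM at ZT18 (14.2 to 18.0). Its log2 ratio of night to day was 0.66 (interval 0.39 to 0.94), the only one of the 10 past 1.5-fold. Of 15050 genes with a mean of at least 1 CPM, 16.6% were past this size in either direction, and with TMM scaling of the pair none of the 10 was. In Ctrl the same ratio, taken as the mean of CT16 and CT20 over CT8 and of CT40 and CT44 over CT32, was 0.03 and -0.16, and in SCNx it was -0.44 and -0.64. Light regime, dissection, tissue storage and kit differed between KO and the other groups, as did genotype, tamoxifen, age and housing site. The paper also gives a lower average RNA integrity for the frozen KO samples. The parts of all these in the KO values cannot be told apart.

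Lrp8 measured 119 CPM at ZT7 (114 to 124) and 142 CPM at ZT18 (137 to 148), a log2 ratio of 0.26. The corresponding ratios were -0.10 and 0.06 in Ctrl and 0.31 and 0.09 in SCNx, so these sampling times gave small values in Ctrl too. Vldlr measured 230.4 CPM by day and 187 CPM by night, with a log2 ratio of -0.30, against -0.09 and -0.15 in Ctrl. Lrp1 measured 800.3 CPM by day and 1153 CPM by night (log2 ratio 0.53) and Sorl1 measured 84.0 and 108 CPM. Apoe stood at 1859.7 and 2126 CPM, App at 1565 and 1889 CPM, Mme at 16.8 and 18.1 CPM, and Ide at 72.7 and 75.9 CPM. Lrp2 stood at 17.6 and 18.6 CPM in KO, above every Ctrl and SCNx library, where the highest value was 5.19 CPM. TMM scaling of the KO pair lowered all these log2 ratios, to 0.53 for Lrp3, 0.40 for Lrp1, 0.24 for Sorl1, 0.14 for App, 0.13 for Lrp8, 0.06 for Apoe and -0.43 for Vldlr. It turned those of Ide, Lrp2 and Mme from 0.06, 0.08 and 0.11 to -0.07, -0.05 and -0.02.

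**Figure D5:**
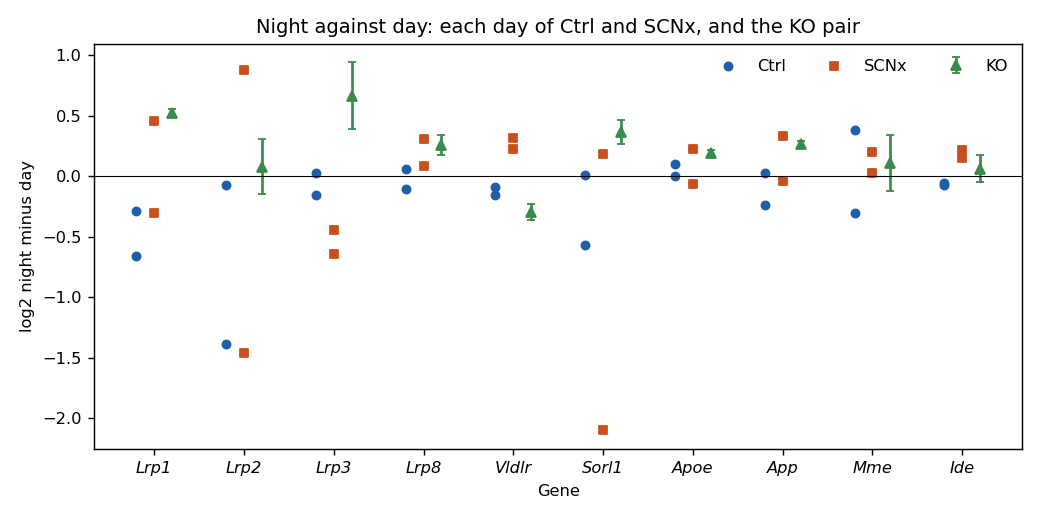
Log2 ratio of night to day for the 10 genes, with 1 point for each day of Ctrl (circles) and SCNx (squares) and 1 for the KO pair (triangles), whose bars are 95% intervals of counting error. The KO value of Lrp3 was 0.66, and the SCNx value of Sorl1 at -2.10 uses SCNx CT32 as its day library.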

How the data were processed

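RNA-seq libraries of 26 mice were used. The authors aligned reads to GRCm39 and deposited estimated counts per gene from Salmon 1.9.0 (submitters' processing notes), not normalized, in 1 table for Ctrl and SCNx and 1 for KO. Replicates were not pooled. Counts were rounded. A gene was tested where its CPM averaged 1 or more in each group. CPM of Ctrl and SCNx is TMM-scaled over the tested genes, that of KO uses the plain library total. edgeR 4.0.16 (R 4.3.3) fitted all 24 libraries, with a group mean for levels and a mean, 24 h cosine and sine per group for rhythms, by quasi-likelihood F tests with Benjamini-Hochberg adjustment over all tested genes (threshold 0.05). Errors of amplitudes come from the residual spread of log2 CPM with a prior count of 1. Night to day ratios used the same prior. The smallest library held 38751200 counts in Ctrl and 17425200 in KO, and intervals given for KO cover counting error only. Fits were run on simulated data with planted level and rhythm changes. The planted amplitude was larger than those fitted for Lrp8 and Lrp3, so recovery at theirs was not examined. DESeq2 1.42.0, limma-trend 3.58.1, other scaling and filters, and fits without single libraries were alternatives.

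The 10 genes and the pathway lists were chosen with earlier results of these data known. All 10 were named. Of each list, genes past the threshold in a comparison were named (at most 5 by p), otherwise the 2 with the smallest p, given here for the level (VPS10 receptors and the sterol genes aside) and the rhythm in Ctrl. For each gene the 2 most correlated genes were read. Some genes that these rules name are not reported here. The p-values of the main fits set each effect against the residual spread of a gene over the libraries of both groups. Only single mice were taken at each time in each group. Spread between mice therefore cannot be told apart from departure from the fitted curve. In the level fit, which held group means only, any rhythm was part of the residual spread. The same circadian time in both groups did not pair libraries. Transcript lengths came from GENCODE vM21 and promoter windows from RefSeq (both GRCm38), so no coordinates of the files' build are given. The counting strand was not given in the sources used here.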

Additional observations from a re-analysis of the deposited data

Results flagged for a closer look

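The 24 h rhythm differed between SCNx and Ctrl for 1 of the 10 genes and for 4 genes of the related lists (edgeR test of the difference itself). Over all tested genes the same test called 2.12%, 291 of 13697, and the counts given here were not tested against that share. Lrp8 had an adjusted p of 0.0107, with an amplitude of 0.38 in Ctrl and 0.06 in SCNx. Lpl had an adjusted p of 0.0111 and Sorcs2 one of 0.0261, both with a larger fitted amplitude in Ctrl. Apob had an adjusted p of 0.0404, in a gene that exceeded 2 CPM only in Ctrl CT16 and SCNx CT0. Lrp8os3 had an adjusted p of 0.0459, with amplitudes of 0.31 in Ctrl and 0.33 in SCNx. None of the 5 passed with circadian time as a replicate block.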

How the results depend on the processing

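The rhythms of Lrp8 and Lrp3 in Ctrl kept their calls under all alternatives that gave a value, with amplitudes of 0.34 to 0.40 for Lrp8 and 0.36 to 0.45 for Lrp3. Leaving out 1 library at a time left 2 members rhythmic in Ctrl in every fit, 1 to 2 members differing between the groups, and 0 changed in level or rhythmic in SCNx. The same fits called 918 (without Ctrl CT44) to 2249 genes (without SCNx CT32) rhythmic in Ctrl, 163 (without SCNx CT16) to 466 (without SCNx CT32) differing (moved by over 1.5 times also without Ctrl CT12, CT20, CT24 or CT44 and SCNx CT12), 0 to 6 rhythmic in SCNx, the highest without SCNx CT24, and 0 to 3 changed in level, the highest without SCNx CT32.

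DESeq2 called 14 genes changed in level, 432 rhythmic in SCNx and 590 differing. With no minimum CPM, 1384 genes were rhythmic in SCNx, with 1 member, and 654 differed. Without Ctrl CT4 and SCNx CT32, 2223 genes were rhythmic in Ctrl and 504 differed, and without all 4 libraries 2901 and 640, with 2 members differing in both. With TMM scaling 0 members passed 1.5-fold in KO. The level difference of Lrp8 turned to -0.0035 with no minimum CPM and ranged from -0.0371 to 0.0445 without single libraries, that of Ide turned to -0.00068 with no minimum and ranged from -0.0029 to 0.0250, and that of Apoe turned to -0.0014 without Ctrl CT16 and SCNx CT0 and ranged from -0.0169 to 0.11. The cause of these changes was not tested.

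Ctrl and SCNx mice shared only their circadian times, and 5 of 12 time points had a correlation of deviations above 0.1. The correlations ran from -0.44 at CT16 to 0.34 at CT28. With the time as a replicate block 98 genes differed in rhythm, 0 of them members (Lrp8 adjusted p = 0.0758), and 0 changed in level. The difference calls of Lpl, Sorcs2, Apob and Lrp8os3 were lost as well (adjusted p = 0.0651, 0.0923, 0.15 and 0.24).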
